A study of Mus musculus with 24 samples.

Results

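The H3K27me3 peak lists of Dnmt3a knockout (KO) and wild-type (WT) mouse lung endothelial cells were compared genome-wide. The peaks were chosen by mark and genotype, as every peak in the deposited H3K27me3 list of each genotype: 20918 in WT and 31022 in KO, 51940 of the 313065 peaks in all 8 lists of the series. The series profiled 4 histone marks with ACT-seq, in which an antibody brings a loaded transposase to marked chromatin so that adapters are inserted there. The labels give 3 samples for each mark and genotype (6 for H3K27me3), and each genotype's samples stand behind 1 deposited list per mark. The WT and KO groups share tissue (lung), cell type (endothelial cells isolated by FACS) and organism, and differ in the labels by genotype alone. The sources used here do not give how Dnmt3a was inactivated (germline or by a Cre, and under which promoter), or the age and number of mice.

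H3K27me3 is written by Polycomb repressive complex 2 (PRC2), read by Polycomb repressive complex 1, and kept at CpG-rich starts of developmental genes that a differentiated cell holds silent. DNMT3A is a de novo DNA methyltransferase, and DNA methylation and H3K27me3 are often found apart at CpG-rich DNA. In a vascular endothelial cell the genes of other lineages, such as homeobox and neural transcription factors, are the usual carriers of the mark.

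Each list holds peak positions and widths without a height or a p-value, so the values below are lengths and counts of 1 list per genotype, with no spread between samples and no test. The lists cover chromosomes 1 to 19 of the mm10 assembly, and the sequencing depth behind them is unknown. The H3K27ac list ran the other way (81112 peaks in WT, 44484 in KO), and the H3K4me1 lists were nearly equal (49363 and 48458). Endothelial markers checked the labelled cell type: all 10 had both H3K27ac and H3K4me3 peaks in both genotypes, whereas H3K27ac lay at 2 of 8 leukocyte markers in WT and at 1 in KO. Among 8 epithelial markers, H3K27ac lay at 3 in WT and 4 in KO, and among 8 mesenchymal and mural markers at 4 and 2. H3K4me3 lay at 2 leukocyte markers in both genotypes, and at 1 epithelial and 1 mesenchymal or mural marker in WT against 4 and 4 in KO. The epithelial surfactant gene Sftpc carried 1074 bp of H3K4me3 in WT and 1143 bp in KO. The part of such cells in the results was not tested. Dnmt3a itself had 0 bp of H3K27me3 in either genotype, so these lists do not check the knockout.

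Promoter sequences are shown for genes at which the mark was kept, appeared or went missing at the printed start site. The windows run from 250 bases before to 50 after an annotated start (RefSeq, GRCm38.p6, the patch release of mm10), 5′ to 3′ along the gene, with each CG dinucleotide in capitals. For the largest whole-gene gains, 2 windows under a peak in both lists were Clybl at chr14:122181444-122181743 (plus strand, 26 CG) and Lmx1b at chr2:33641049-33641348 (minus strand, 24 CG).
Clybl: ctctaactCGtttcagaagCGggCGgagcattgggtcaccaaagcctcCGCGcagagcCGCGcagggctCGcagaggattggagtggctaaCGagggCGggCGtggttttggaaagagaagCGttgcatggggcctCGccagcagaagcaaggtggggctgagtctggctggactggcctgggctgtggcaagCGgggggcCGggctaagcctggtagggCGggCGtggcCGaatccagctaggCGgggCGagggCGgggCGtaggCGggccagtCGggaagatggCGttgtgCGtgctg
Lmx1b: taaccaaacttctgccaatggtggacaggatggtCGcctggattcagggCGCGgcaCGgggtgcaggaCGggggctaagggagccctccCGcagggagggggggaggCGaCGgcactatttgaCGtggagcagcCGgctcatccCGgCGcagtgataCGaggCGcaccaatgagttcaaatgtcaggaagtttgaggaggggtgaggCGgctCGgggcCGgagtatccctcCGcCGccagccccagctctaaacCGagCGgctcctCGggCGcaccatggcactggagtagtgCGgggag

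At gene ends with the largest gains, 2 windows lay under a KO peak only, Lhx3 at chr2:26206526-26206825 (minus strand, 28 CG) and Ap5b1 at chr19:5567774-5568073 (plus strand, 44 CG). Lhx3 has 2 annotated windows, and the one not printed lay under a peak in both lists.
Lhx3: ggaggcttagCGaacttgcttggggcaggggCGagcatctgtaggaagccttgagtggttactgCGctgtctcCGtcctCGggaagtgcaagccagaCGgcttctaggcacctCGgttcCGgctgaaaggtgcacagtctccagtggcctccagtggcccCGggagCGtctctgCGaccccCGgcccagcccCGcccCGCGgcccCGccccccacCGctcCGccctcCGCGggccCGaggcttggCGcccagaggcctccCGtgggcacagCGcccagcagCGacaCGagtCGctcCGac
Ap5b1: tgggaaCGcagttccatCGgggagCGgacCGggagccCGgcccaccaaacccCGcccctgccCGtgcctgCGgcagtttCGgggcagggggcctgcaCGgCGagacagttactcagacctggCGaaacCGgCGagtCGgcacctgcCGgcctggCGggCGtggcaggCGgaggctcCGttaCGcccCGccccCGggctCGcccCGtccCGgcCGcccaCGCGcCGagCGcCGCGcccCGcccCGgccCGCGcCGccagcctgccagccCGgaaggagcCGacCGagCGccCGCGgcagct

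At gene ends with the largest losses, 2 windows lay under a WT peak only, Tnfrsf1b at chr4:145246821-145247120 (minus strand, 13 CG) and Clip3 at chr7:30291445-30291744 (plus strand, 14 CG).
Tnfrsf1b: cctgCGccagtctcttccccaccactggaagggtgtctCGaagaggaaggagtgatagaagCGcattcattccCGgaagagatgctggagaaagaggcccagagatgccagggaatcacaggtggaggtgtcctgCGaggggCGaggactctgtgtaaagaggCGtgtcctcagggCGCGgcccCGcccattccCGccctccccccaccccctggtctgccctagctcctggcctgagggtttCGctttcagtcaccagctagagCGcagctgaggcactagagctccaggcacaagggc
Clip3: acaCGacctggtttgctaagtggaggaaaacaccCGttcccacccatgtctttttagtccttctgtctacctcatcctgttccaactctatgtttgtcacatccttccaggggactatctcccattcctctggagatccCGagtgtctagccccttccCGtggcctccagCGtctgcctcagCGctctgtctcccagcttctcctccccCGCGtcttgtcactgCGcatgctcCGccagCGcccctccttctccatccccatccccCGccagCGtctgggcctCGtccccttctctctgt

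CG dinucleotides were searched as the letters CG, which read the same on both strands. Windows under H3K27me3 in both lists held a median of 23 CG, and 81.9% of these 5621 windows held at least 15. The 1580 windows under a KO peak alone (7.87% of 20085 windows) had a median of 21, with 69.6% at 15 or more (95% Clopper-Pearson interval 67.221 to 71.82%, counting error only). The 656 windows under a WT peak alone (3.27%) also had a median of 21, with 73.3% at 15 or more (69.762 to 76.672%). Windows without the mark had a median of 6, and 28.4% of them reached 15, against 48.1% of all windows. The windows marked in a single genotype were thus CG-rich in both directions and overlapped in their intervals.

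Mature miRNA sequences are shown for hairpins in or beside the Hox clusters and at the miR-9 loci, several of which lay in the longest H3K27me3 domains. Capitals mark the seed, bases 2 to 8, and the 5p arms fall into 3 seed groups.
mmu-miR-10a-5p: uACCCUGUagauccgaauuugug
mmu-miR-10b-5p: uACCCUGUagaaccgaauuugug
mmu-miR-196a-5p: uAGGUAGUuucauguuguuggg
mmu-miR-196b-5p: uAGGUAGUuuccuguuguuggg
mmu-miR-9-5p: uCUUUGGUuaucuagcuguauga

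Mir10a (in the Hoxb cluster) and Mir10b (in the Hoxd cluster) share a seed, but with 2000 bp on each side Mir10a had 0 bp of H3K27me3 in WT and 919 bp in KO, whereas Mir10b had 1612 and 1605 bp. Mir196b had 0 bp in WT and 1269 bp in KO, and its seed relatives Mir196a-1 and Mir196a-2 had 1109 and 442 bp in WT and 1312 and 822 bp in KO. The 3 loci of miR-9, a neural miRNA, were all marked in WT and longer in KO: 963 to 1568 bp at Mir9-1, 1391 to 2114 bp at Mir9-2 and 309 to 1225 bp at Mir9-3. In the miR-10 and miR-196 groups, loci with the same seed thus differed in whether the mark was present in WT. Of 919 hairpins, 15 (1.63%) gained at least 1000 bp and 0 lost that much, with no replicated test behind either count.

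H3K27me3 peaks were more numerous in KO in every width class, and the KO-to-WT ratio was highest in the widest classes. Below 200 bp the KO list held 5634 peaks and the WT list 4110, a ratio of 1.37. From 1000 to under 1500 bp there were 2392 and 1170 peaks (ratio 2.04), and from 2000 to under 3000 bp 1079 and 233 (ratio 4.63). From 3000 to under 4000 bp there were 258 KO peaks and 12 WT peaks, and at 4000 bp or more there were 26 and 0. The ratio was therefore 1.18 to 1.37 among peaks under 500 bp and many-fold among peaks of at least 3000 bp. By number, each class under 500 bp added more KO peaks than either class from 3000 bp. The class from 500 to under 750 bp added the most (3470 in WT, 5497 in KO). Across the marks, peaks of at least 2000 bp stood at 1363 against 245 for H3K27me3 (ratio 5.56), 143 against 39 for H3K4me3 (ratio 3.67), 35 against 5 for H3K4me1 and 20 against 37 for H3K27ac. Cut to the covered length of the WT list, the KO list kept its 6631 widest peaks, all at least 824 bp wide.

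**Figure D1:**
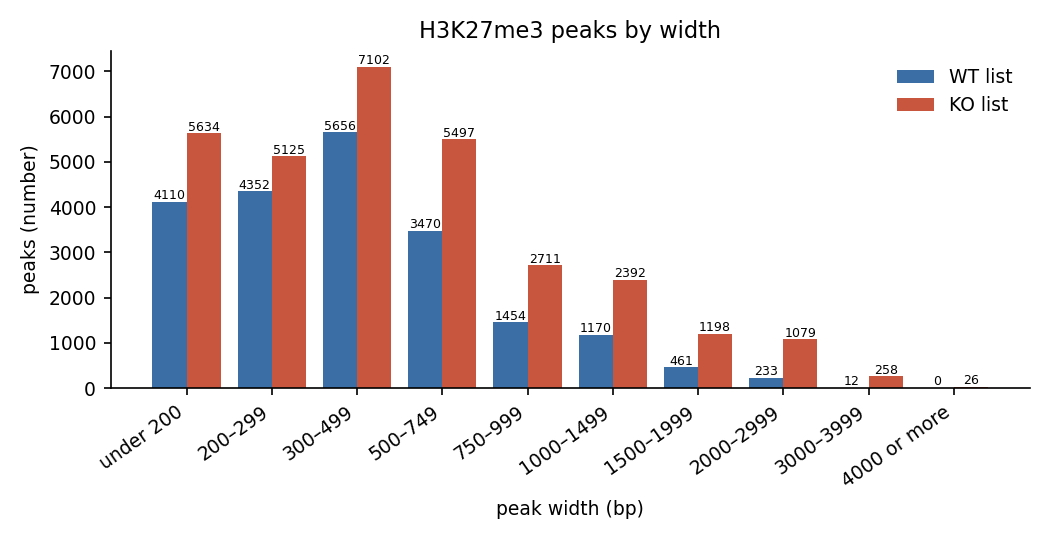
Number of H3K27me3 peaks (y axis) in each class of peak width in bp (x axis) for the deposited WT and KO lists, with the count above each bar. The ratio of the bars is lowest at 200 to under 300 bp (4352 and 5125), and above 4000 bp only KO has peaks (26).

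The mark was retained at most WT bases and extended well past them. The lists had 7.493 Mb in common, 11.66 Mb was listed in KO alone (gained) and 2.561 Mb in WT alone (lost), so gained length was 4.55 times lost length. Of the gained length, 42.4% lay under KO peaks that met a WT peak and 57.6% under KO peaks that met none. With peaks of 1 list or both joined across gaps of up to 5000 bp, 12726 places carried both lists (9.11 Mb in WT, 14.8 Mb in KO), 9108 carried the KO list alone (4.38 Mb) and 3246 the WT list alone (0.947 Mb). Most of the length in KO, 77.2%, was thus at places that were marked in WT as well.

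At peaks that met exactly 1 peak of the other list, 14150 pairs, the KO peak was the wider in 70.4%. The median KO-to-WT width ratio was 1.23 (quartiles 0.954 and 1.85). Both edges lay outside the WT peak in 44.0% of pairs and both inside in 12.9%. KO peaks at least 3 times as wide numbered 1535, against 220 WT peaks at least 3 times as wide. Ordered by the geometric mean width of the pair, which treats both lists alike, the median ratio was 1.1 below 300 bp, 1.35 from 1000 to 1500 bp and 1.22 from 2000 bp. The widening was greater away from acetylated chromatin: the median ratio was 1.14 for 7236 pairs on H3K27ac and 1.38 for 6914 pairs away from it, with 4.82% and 17.2% of pairs at least 3 times as wide in KO.

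A minority of KO peaks lay over separate WT peaks. Of 15075 KO peaks that met the WT list, 687 joined several WT peaks (1451 in all, median KO width 2278 bp), and of 15715 WT peaks that met the KO list, 121 joined several KO peaks. The widest KO peak, 5823 bp at chr17:73708027-73713849 in Galnt14, a glycosyltransferase gene, lay over 5 WT peaks that held 2039 bp. KO peaks at Wnt3a, a Wnt ligand (3711 bp over 4 WT peaks with 1212 bp), and at Hoxb13, a posterior Hox gene (3196 bp over 4 with 892 bp), showed the same form.

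Outside WT peaks, KO peak density was highest next to WT peak edges and declined with distance. KO peaks covered 19.7% of the bases within 500 bp of a WT peak, 5.39% from 500 to 1000 bp, 1.04% from 2000 to 5000 bp and 0.0361% beyond 100000 bp. The reverse measure, WT peaks around KO peaks, gave 3.61%, 0.569%, 0.165% and 0.0147%. The KO density was therefore the higher at every distance, by 9.47 times from 500 to 1000 bp and by 2.46 times beyond 100000 bp. The H3K4me3 list was also the longer in KO (22724 against 14984 peaks). It had 18.6% within 500 bp but 1.78% from 500 to 1000 bp and 0.447% from 1000 to 2000 bp, where H3K27me3 had 2.66%. As a ratio of KO to WT density, H3K4me3 was near H3K27me3 at these distances. It stood at 8.09 from 500 to 1000 bp, and at 7.26 from 1000 to 2000 bp beside 7.67 for H3K27me3. Beyond 100000 bp the H3K4me3 ratio was the higher, 4.45. Of the gained H3K27me3 length, 59.45% lay within 5000 bp of a WT peak, and of the lost length 62.42% lay within 5000 bp of a KO peak. With peaks of at least 500 bp only, the gained share was 36.3%, and with equal covered length the lost share was 18.26%.

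**Figure D2:**
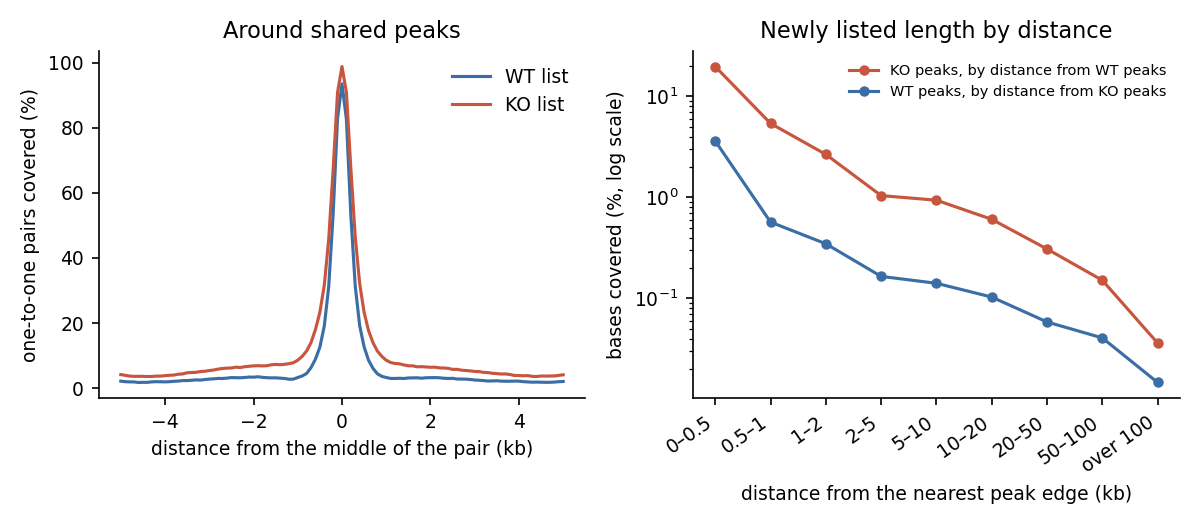
Left, share of paired peaks (%) covered by each list at each distance (kb) from the middle of the pair; right, share of bases (%, log scale) covered by 1 list at each distance (kb) from the nearest peak edge of the other. At 1000 bp from the middle KO covered 8.59% and WT 3.29% of pairs, and in the right panel the KO curve lies above the WT curve in all 9 classes.

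H3K27me3 peaks were more clustered in KO. With gaps of up to 5000 bp joined, the KO list formed 448 domains of at least 5 peaks and the WT list 169, and domains of at least 10 peaks numbered 65 and 17. Peaks that stood alone made up 54.7% of the KO list and 65.5% of the WT list. Inside the 169 WT domains, peaks filled 22.9% of the span in WT and 33.3% in KO, and 153 of the 169 were fuller in KO. Of the 448 KO domains, 15 held no WT peak. The ratio of domain numbers, 2.651, was 5.688 with gaps of up to 2000 bp, 1.231 with the 20918 widest KO peaks, and turned to 0.05325 with equal covered length, where the KO list keeps 21.4% of its peaks.

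The longest domains lay over homeobox and other developmental transcription factor genes. In WT the longest, 52879 bp at chr2:74656016-74708894, ran from Evx2 to Hoxd8 and held 14175 bp of the mark in WT and 19362 bp in KO. In KO the longest, 62849 bp at chr2:74691175-74754023, ran from Hoxd10 past Hoxd4 with 14384 bp in WT and 22323 bp in KO. The other long WT domains lay at Pax6 (9835 to 15468 bp, WT to KO), an eye and forebrain factor, Six3 (7775 to 9725 bp), Zic1 with Zic4 (10488 to 13296 bp), zinc-finger factors of the hindbrain, and Mir9-2. In KO the next longest lay at Mir9-3, 60564 bp at chr7:79495860-79556423, with 14 WT peaks and 6704 bp against 19 KO peaks and 15392 bp. Hoxc8 to Hoxc4 followed (7270 to 16030 bp), and then Zic1 with Zic4 and Pax3, a neural crest and muscle factor (7885 to 13956 bp). Each of these domains was marked in both genotypes and longer in covered bp in KO.

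Clusters with no WT peak were fewer and shorter. The largest by peak number, 8 KO peaks with 4110 bp at chr11:96340781-96356448, lay over Hoxb3 and Hoxb2, anterior Hox genes. The next, 6 peaks with 3332 bp at chr16:92674932-92688479, lay in Runx1, a blood-forming transcription factor. In the other direction the largest was 4 WT peaks with 1973 bp in Dlx6os1, an antisense RNA gene beside Dlx6, and then 3 peaks with 1544 bp in Tmem45a.

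Every chromosome had more covered length in KO, by 1.69 times on chromosome 3 to 2.44 times on chromosome 11. On chromosome 11, which carries the Hoxb cluster, covered length was 506.0 kb in WT and 1235 kb in KO, and peaks of at least 1000 bp numbered 73 and 323. Chromosome 19 had the highest density in KO, 11.0 kb per Mb against 5.49 kb per Mb in WT. Over the 19 chromosomes, the ratio and the number of protein-coding genes per Mb had a Spearman coefficient of 0.728 and a Pearson coefficient of 0.671, as a description of points that share the same 2 lists. Chromosome 7, with 14.3 genes per Mb, lay off that order with a ratio of 1.84. With equal covered length 10 of the 19 chromosomes had more length in KO.

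**Figure D3:**
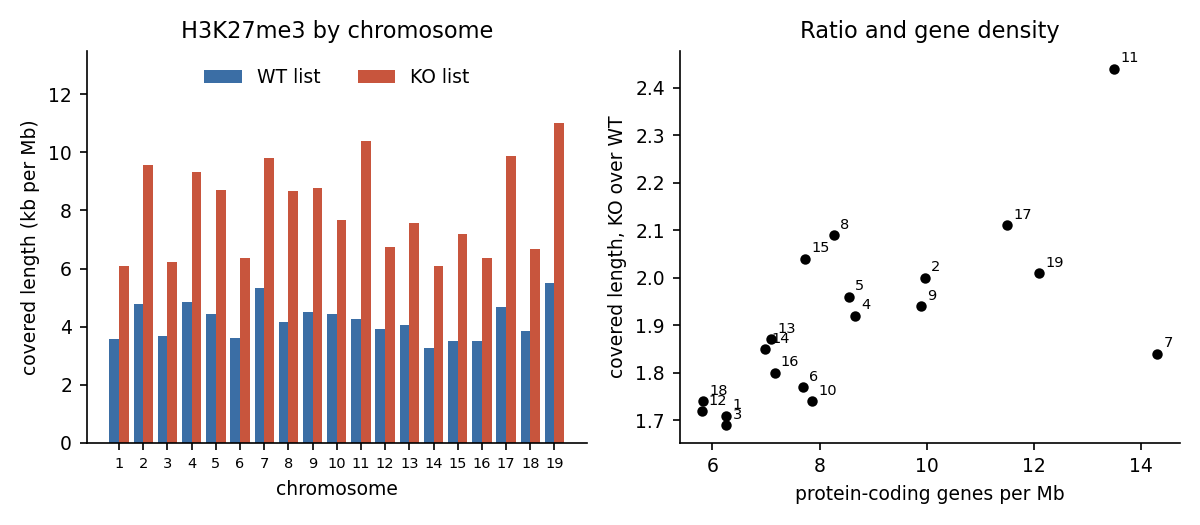
Left, covered length in kb per Mb (y axis) on each chromosome (x axis) for both lists; right, KO-to-WT ratio of covered length against protein-coding genes per Mb, each point labelled with its chromosome. Chromosome 11 is highest in the right panel at 2.44 and chromosome 3 lowest at 1.69.

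Gained length lay farther from start sites than the length the lists had in common. Within 2500 bp of a start site lay 46.3% of the common length, 24.6% of the gained and 26.0% of the lost length. Gene bodies beyond that held 25.9%, 33.6% and 29.5%, and intergenic DNA 27.8%, 41.9% and 44.4%. The gained length overlapped WT H3K27ac peaks in 11.5% of its bases, against 33.6% of the common and 26.7% of the lost length. Gained and lost length were thus alike in position relative to genes and unlike in their overlap with acetylation.

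Around 10286 start sites with the mark nearby, the KO-to-WT ratio was lowest at the start itself and higher at a distance from it. The difference in the covered share ran the other way and was larger near the start. At the start site, 51.4% were covered in WT and 61.3% in KO, a ratio of 1.19, and at 2000 bp downstream 2.88% and 5.94%, a ratio of 2.06. The 6886 starts with H3K27ac within 1000 bp had a narrow profile: 59.6% and 67.0% at the start (WT and KO), 3.09% and 4.46% at 1000 bp downstream and 0.871% and 1.34% at 2000 bp. The 3400 starts without H3K27ac had a broad one: 34.9% and 49.8% at the start, 15.9% and 30.7% at 1000 bp downstream and 6.94% and 15.3% at 2000 bp. At the latter, the mark at 2000 bp upstream was lower than downstream in both genotypes (4.59% in WT and 9.76% in KO).

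Genes that gained H3K27me3 far outnumbered genes that lost it. Measured over the gene with 2000 bp on each side, 2003 of 20665 protein-coding genes (9.69%) had at least 1000 bp more in KO and 35 (0.169%) at least 1000 bp less. Of the 2003, 206 had no WT peak. The share of gaining genes was 1.87% among genes without the mark in WT, 15.3% among genes with 500 to under 1000 bp, 54.9% with 2000 to under 5000 bp and 83.3% (50 of 60) with 5000 bp or more. In proportion the gain was more even, with summed KO-to-WT ratios of 1.67, 1.55, 1.64, 1.64 and 1.71 in the 5 classes of genes marked in WT. With equal covered length, 1146 genes (5.55%) gained and 424 (2.05%) lost. At gene ends, a peak within 1000 bp in KO alone was found at 1712 genes (8.28%) and in WT alone at 708 (3.43%). That order turned when the KO list was cut to its 20918 widest peaks (1053 and 1582) and at equal covered length (314 and 5141), settings that remove the narrowest KO peaks.

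The largest gain was at Prdm16, a zinc-finger regulator of brown fat and other cell fates (chr4:154316122-154637360). It carried 24 WT peaks with 11043 bp and 51 KO peaks with 34709 bp, and 11 of the KO peaks were at least 1000 bp wide against 2 in WT. Mecom (chr3:29951296-30509759), a related zinc-finger factor, had 5437 bp in WT and 18112 bp in KO. Both genes also held H3K27ac: 4691 bp in WT and 2065 bp in KO at Prdm16, and 10929 and 7543 bp at Mecom. The whole H3K27ac list also had fewer peaks in KO (81112 in WT, 44484 in KO). H3K4me3 ran the other way, from 1813 to 2111 bp at Prdm16 and from 2118 to 4259 bp at Mecom. So did H3K4me1, from 4226 to 6886 bp and from 11500 to 14979 bp. Lmx1b, a LIM-homeodomain factor of limb and brain whose promoter is printed above, had 4985 bp in WT and 16903 bp in KO, and no H3K27ac peak in either genotype. Runx1 had 3904 and 14352 bp, and its WT H3K27ac length of 1107 bp stood at 276 bp in KO. Its H3K4me3 length was 532 bp in WT and 1214 bp in KO, and its H3K4me1 length 478 and 437 bp.

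The other large gains were at long genes of varied function. Clybl, a mitochondrial lyase gene, had 3969 bp in WT and 18119 bp in KO. Ank3, which encodes ankyrin-G, had 4830 and 17045 bp, Wwox, an oxidoreductase gene, 4114 and 15546 bp, and Tshz2, a zinc-finger gene, 3914 and 14873 bp. Cacna2d2, a calcium channel subunit, went from 3 peaks and 2381 bp to 24 peaks and 13766 bp, and Cdh22, a cadherin, from 3511 to 14810 bp. Sox5, a Sox factor, had 10152 and 20853 bp, and Pde10a, a phosphodiesterase, 6689 and 17219 bp. With equal covered length, 9 of these 12 genes kept a gain of at least 1000 bp, from 1320 bp at Mecom to 6920 bp at Prdm16. The other 3 did not: Sox5 was 955 bp and Tshz2 543 bp longer in KO, and Ank3 had 4798 bp against 4830 bp in WT. Length bears on this ranking: the median length of gaining genes was 34581 bp against 17491 bp for all genes, and 21.2% of genes of at least 100000 bp gained.

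**Figure D4:**
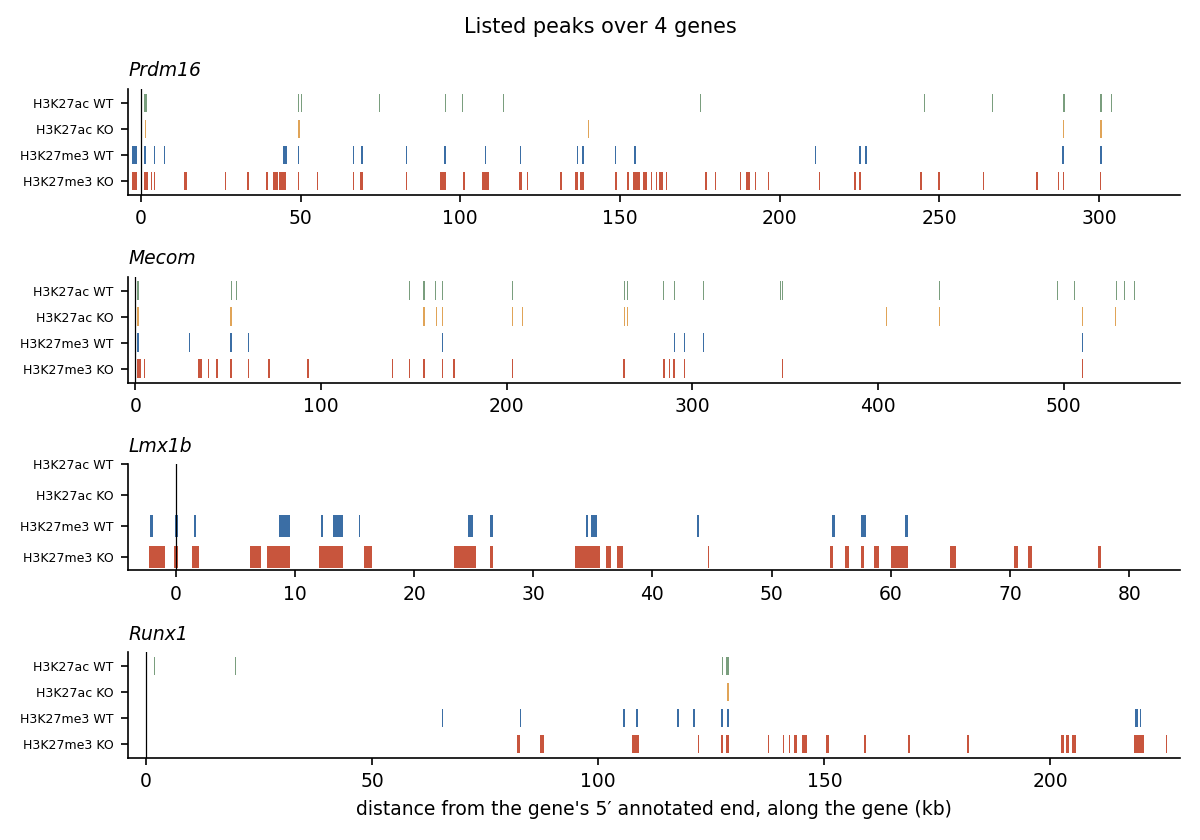
Listed peaks of H3K27me3 and H3K27ac in WT and KO, drawn to scale along Prdm16, Mecom, Lmx1b and Runx1 as distance (kb) from the annotated 5′ end in the direction of the gene. Lmx1b shows 15 WT and 22 KO H3K27me3 peaks with no H3K27ac peak, and Prdm16 shows 24 and 51.

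Genes with the most H3K27me3 in WT also had more in KO. Ptprn2, a secretory-vesicle phosphatase-like gene, had 12561 and 22729 bp, Ebf3, a neural and muscle transcription factor, 11007 and 19299 bp, and Celf4, an RNA-binding protein gene, 9378 and 19611 bp. Gata4, a cardiac and endoderm factor, had 9285 and 15817 bp. These values place heavily marked WT genes among the large gains.

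Around gene ends (5000 bp around each end), the largest gain was at Emx1, a forebrain homeobox gene, with 1721 bp in WT and 7916 bp in KO. Pitx1, a hindlimb and pituitary homeobox gene, had 3511 and 9285 bp, and Lhx3, a pituitary and motor neuron LIM-homeobox gene, 1371 and 6696 bp. Ap5b1, an adaptor-protein subunit gene, had 0 bp in WT and 4835 bp in KO. Hoxc6 had 2269 and 7075 bp and Spsb4, a ubiquitin-ligase adaptor, 1556 and 6246 bp. Of these 6 genes, 4 were homeobox genes, and Ap5b1 was the exception in having no WT peak.

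Losses were smaller. Dlg2, a synaptic scaffold gene of 1973 kb, had 9 peaks with 5700 bp in WT and 7 with 2938 bp in KO. Rnf152, a ubiquitin ligase gene, had 1475 and 0 bp, Tmem45a 1897 and 149 bp, and Stau2, a double-stranded RNA-binding protein gene, 2136 and 507 bp. Xylt1, which starts proteoglycan chains, had a single WT peak of 1822 bp and a single KO peak of 392 bp whose left edges lay 4 bp apart (117380715 and 117380719). Epha5, an ephrin receptor gene, had 1 WT peak of 2850 bp and 3 KO peaks with 1521 bp. Meis3, a homeobox gene, had 2424 and 1086 bp, and Clip3, a microtubule-linker gene whose promoter is printed above, 1918 and 513 bp. Fam241b (1622 and 197 bp), Efcab1 (1572 and 203 bp), Slc9a4 (1530 and 187 bp) and Igsf5 (1630 and 305 bp) complete the 12. By gene ends, Slc25a31, an ADP/ATP carrier gene, had 1507 and 0 bp and Tnfrsf1b, a tumour necrosis factor receptor, 2540 and 1103 bp. Over the gene with 2000 bp on each side Slc25a31 had 0 bp in both genotypes, so its lost length lay farther out. The largest loss, a difference of -2762 bp (KO minus WT) at Dlg2, was far below the largest gain, 23666 bp at Prdm16.

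**Figure D5:**
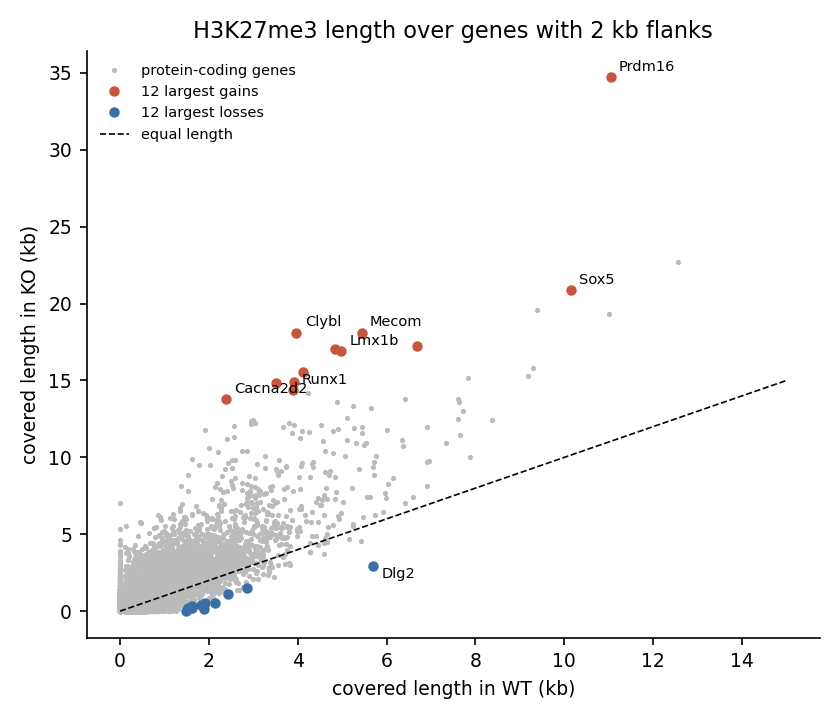
Covered length in KO against WT (kb) over each of 20665 protein-coding genes with 2000 bp on each side, with the 12 largest gains and 12 largest losses coloured and equal length dashed. Prdm16 stands apart at 34709 bp in KO, and Dlg2 is the longest of the losses in WT at 5700 bp.

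Among 23 gene lists, the highest shares of gaining members were those of homeobox factors outside the Hox clusters and of Pax and T-box factors. All 81 such homeobox factors on the list used were marked in both genotypes. Of them, 57 (70.4%) gained at least 1000 bp and 0 lost that much, against 9.69% and 0.169% of all genes. At equal covered length 33 gained and 8 lost. The homeobox genes Meis3 and Meox2, which lost at least 1000 bp, were not on this list. The 81 had a median of 1940 bp in WT. Among all genes, 37.8% with 1000 to 1999 bp in WT gained, and 54.9% with 2000 to 4999 bp. Summed KO-to-WT ratios were 1.85 for the 81, 1.72 for Pax and T-box factors and 1.75 for all genes. The median difference of the 81 was 1532 bp, against 0 bp over all genes and 211 bp over the 11501 genes with the mark in either list. Lhx4 (4103 to 9612 bp, WT to KO) and Lhx6 (329 to 4316 bp), LIM-homeobox genes of the nervous system, were among the largest after Lmx1b and Pitx1. In Pax and T-box factors 15 of 23 (65.2%) gained (median difference 1502 bp), led by Tbx5, a heart and forelimb factor (5644 to 13239 bp), Pax7 (5113 to 11158 bp) and Pax5 (2403 to 7783 bp). Of 39 Hox genes 16 (41.0%) gained and 0 lost (10 and 3 with equal covered length), with Hoxb3 at 0 bp in WT and 7044 bp in KO, Hoxd3 at 7621 and 13624 bp and Hoxc9 at 191 and 3309 bp.

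Among Gata, Sox and forkhead factors, 21 of 43 (48.8%, against 9.69% of all genes) gained (median difference 966 bp) and 1 lost. The gains included Sox6 (2909 to 7490 bp, WT to KO) and Foxf2 (1332 to 4161 bp), and the loss was Gata6, an endoderm and heart factor (1491 to 470 bp). Of 38 neural and muscle bHLH factors 14 (36.8%) gained (median difference 686.5 bp). Among them, Twist2, a mesenchymal factor, had 1966 and 5892 bp and Myod1, the muscle factor, 918 and 3403 bp. Median WT lengths were 1109 bp for Gata, Sox and forkhead factors and 1001.5 bp for bHLH factors. Among all genes with 1000 to 1999 bp in WT, 37.8% gained, a share near that of the bHLH factors.

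Signalling, guidance, channel and collagen genes gained at shares of 28.6 to 50.0%, against 9.69% of all genes. Median WT lengths of these lists ran from 553 bp (guidance genes) to 1302.5 bp (Wnt genes). Among all genes, 15.3% with 500 to 999 bp in WT gained, and 37.8% with 1000 to 1999 bp. The FGF ligands, with a WT median of 1063.5 bp, gained at 30.0%, below the latter share. Of 30 Wnt ligands and inhibitors 15 gained, including Wnt3a (3904 to 7824 bp) and Wnt5b (687 to 3880 bp). Of 31 BMP, GDF and hedgehog genes 14 gained, including Gdf10 (1418 to 5009 bp) and Bmp3 (867 to 4351 bp), and of 20 FGF ligands 6 gained, led by Fgf17 (1090 to 4210 bp). The 50 semaphorin, plexin and other guidance genes had the highest summed KO-to-WT ratio of the 23 lists, 2.55, with 16 gaining. Slit1 (1920 to 11786 bp) and Slit3 (2997 to 12434 bp), ligands of Robo receptors, led them, but with equal covered length Slit3 had 2238 bp in KO. Of 71 potassium channels 34 gained, led by Kcnk3 (1345 to 6526 bp), and of 42 collagens 12, led by Col11a2 (424 to 3612 bp). No list of this paragraph had a member that lost at least 1000 bp in the full lists, but with equal covered length 5 Wnt genes, 2 BMP, GDF and hedgehog genes, 1 FGF gene, 2 guidance genes, 4 potassium channels and 1 collagen did.

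Endothelial identity genes gained at about the background share, which was 9.69% of all genes. Of 30 endothelial identity genes, 2 (6.67%) gained and 0 lost: Erg, an ETS factor of the endothelium (1829 to 3149 bp), and Cldn5, a tight-junction gene (354 to 1587 bp). Of the 30, 18 carried the mark in WT and 18 in KO, with a median of 192 bp in WT and 406.5 bp in KO. Pecam1, Kdr and Emcn had 0 bp in both genotypes. Of 18 lung capillary genes 2 (11.1%, also near the background share) gained, Tbx2 (966 to 3549 bp) and Emp2 (2217 to 3413 bp). Arterial, venous and lymphatic genes had 6 of 27 (22.2%) gaining, led by Prox1, the lymphatic fate factor (1355 to 5482 bp), and Nr2f2, a venous fate factor (545 to 2970 bp). With equal covered length, summed KO-to-WT ratios were 0.421 for endothelial identity, 0.916 for arterial, venous and lymphatic genes and 1.4 for homeobox factors outside Hox. That setting drops KO peaks narrower than 824 bp and no WT peak, so it lowers the ratio most where KO peaks are narrow. In the full lists the 3 ratios were 1.63, 1.8 and 1.85, so the values below 1 are no measure of a loss.

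Among genes of other cell types, 8 of 21 mesenchymal and mural genes (38.1%, against 9.69% of all genes) gained. Their median was 1115 bp in WT, and a near share, 37.8%, of all genes with 1000 to 1999 bp in WT gained. The 8 included Wt1 (3526 to 9127 bp), a mesothelial factor, and Pdgfrb (1115 to 6044 bp), a pericyte receptor. Meox2, a homeobox gene, lost (2457 to 1269 bp). Of 23 lung epithelial genes 4 (17.4%, against 9.69% of all genes) gained: Cdh1 (1616 to 3975 bp), Krt18 (0 to 1454 bp), Krt8 (1698 to 3135 bp) and Epcam (518 to 1776 bp). Of 21 leukocyte genes Pax5 and Cd4 (939 to 2416 bp) gained, a share of 9.52% beside 9.69% of all genes, and the median member had 0 bp in both genotypes. A few genes stand in more than 1 list, Tbx4, Tbx5, Pax5 and Tcf21 among them.

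Genes of the Polycomb and DNA methylation machinery were mostly below the 1000 bp step. Of 11 PRC2 genes 1 (9.09%, near the 9.69% of all genes) gained, Epop (343 to 1793 bp), and of 20 PRC1 genes 4 (20.0%): Phc2 (266 to 2041 bp), Kdm2b (1098 to 2838 bp), Cbx8 (1367 to 2955 bp) and Cbx7 (487 to 2041 bp). Of 11 DNA methylation enzymes and 5 genes for H3K27 demethylases and the H2A deubiquitinase, 0 gained and 0 lost at least 1000 bp, although summed ratios were 1.66 and 1.74. Of 31 imprinted genes 9 (29.0%, against 9.69% of all genes) gained, led by Igf2, a growth factor gene (910 to 6091 bp), and Gnas (2214 to 6191 bp). Their median was 582 bp in WT, and 15.3% of all genes with 500 to 999 bp in WT gained. The imprinted list turned with equal covered length, with 4 gaining, 5 losing and a summed ratio of 0.876, and the summed ratio was 0.73 for PRC2 and 0.873 for PRC1. That setting drops KO peaks narrower than 824 bp and no WT peak. In the full lists the ratios were 1.89 for imprinted genes, 1.69 for PRC2 and 1.77 for PRC1. Summed ratios of the 23 lists ran from 1.63 to 2.55, beside 1.75 for all genes, and in 21 lists gaining members outnumbered losing ones (19 with equal covered length).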

How the data were processed

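ACT-seq was done on FACS-sorted lung endothelial cells, with yeast nuclei added to each reaction, per the labels' protocols; whether lists were scaled to them is not given in the sources used here. The submitters' processing notes name MACS2 2.1.2.1, Bowtie2 2.2.6, deepTools 3.1.1, SAMtools, cutadapt 1.14 and Trim Galore 0.4.4 and the mm10 build, without the role of each. The values deposited by the authors are other than counts or signal: the positions and widths in bp of 1 peak list per mark and genotype. The sources used here do not give peak mode, threshold, how the 3 samples were pooled or depth.

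Width was end minus start plus 1. Peaks sharing 1 bp were shared. Covered length was summed over RefSeq protein-coding genes (GRCm38.p6, 20665) with 2000 bp on each side; overlapping genes can share peaks. A promoter window matched 16457 of these genes. A gene gained or lost at a difference of at least 1000 bp. Python 3.11.15, numpy 2.4.6, pandas 2.3.3, scipy 1.17.1 and matplotlib 3.10.9 were used, and the interval tools were tested on simulated data. With 1 list per group no test was made and no p-value computed. Of the gene lists' 705 names 688 were found. The result of 1 list is not reported here.

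Named genes were the 12 largest gains and losses over genes, 6 of each around gene ends, the 6 most covered in WT, genes in the 5 longest domains of each list, up to 6 list members a direction past 1000 bp, and Dnmt3a, without symbols starting in Gm or ending in Rik. Genes at joining peaks and new or lost clusters, genes named by 1 Mb bin, the marker genes at 0 bp and the miRNA loci were picked after their values were seen. Members and gene lists were chosen with earlier results of these data known. The alternatives were peaks of at least 200 or 500 bp, equal numbers or equal covered length of the widest peaks, gaps of up to 500 bp joined, another overlap, distance, flank or threshold, and peaks away from H3K27ac.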

Additional observations from a re-analysis of the deposited data

How the results depend on the processing

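Of 84 alternative values, 4 turned and 29 moved out of tolerance, which was the 95% interval for shares of peaks and 1.5 times for other values; 51 stayed within it, among them the peak number ratio of 1.0 that equal numbers fix by construction. With equal covered length (the widest KO peaks up to the WT length) the peak number ratio was 0.317, the domain ratio 0.05325 and the gene-end ratio 0.06108, all turned; the length ratio was 1.0 by construction, shared shares 75.96% (KO) and 27.57% (WT), the joining ratio 218.7, lost length near a KO peak 18.26%, gaining to losing genes 2.703 and chromosomes longer in KO 10. With the KO list cut to its 20918 widest peaks the gene-end ratio turned to 0.6656; shared shares were 59.61% and 63.03%, joining 14.57 (cuts to the widest KO peaks remove KO peaks that 1 WT peak could join), domains 1.231 and genes 25.93. With peaks of at least 500 bp these were 39.82% and 78.47% shared, domains 10.71, gained length near a WT peak 36.3%, genes 30.19 and gene ends 4.403; with at least 200 bp, 76.51% of WT peaks were shared. Joining gaps of up to 500 bp gave 49.17% of KO peaks shared and a joining ratio of 9.982. Overlap of the narrower peak by at least 50% gave 47.46% and 73.36%. Domain gaps of up to 2000 bp gave 5.688. Thresholds of 500 and 2000 bp gave gene ratios of 11.93 and 852 (852 genes against 1). Away from H3K27ac, 36.18% and 68.36% were shared and the gene-end ratio was 3.685. Why these values moved was not tested beyond what each setting removes. No paired analysis was possible because each genotype has 1 list without replicate numbers, and for the same reason leaving out a sample could not be run. Depth is unknown, so a difference in depth between the lists cannot be told apart from a difference between genotypes.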

Other observations

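At the scale of 1 Mb, the gain was spread over most of the genome and heaviest at a few places. Of 2117 bins of 1000000 bp with an H3K27me3 peak, 1788 had more covered length in KO, 328 more in WT and 1 the same. The bin with the largest gain, chr4:154000001-155000000, went from 26453 to 72423 bp and holds, beside Prdm16, the p53 relative Trp73 (4465 to 7333 bp, WT to KO) and the Notch target Hes5 (1002 to 3357 bp). The next, chr11:96000001-97000000 with the Hoxb cluster, went from 22070 to 66218 bp. The largest loss, on chr16:56000001-57000000, was from 4478 to 1934 bp. Bins without a protein-coding gene had 0.361 kb per Mb in WT and 0.6 in KO (ratio 1.66), and bins with 20 to 39 genes had 7.72 and 15.9 (ratio 2.06).

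Peaks of a single list were narrow in both genotypes and lay at like distances from the other list. The 15947 KO-only peaks had a median width of 302 bp and a median distance of 11295 bp to the nearest WT peak, with 30.0% within 5000 bp. The 5203 WT-only peaks had a median width of 228 bp and a median distance of 9971 bp to the nearest KO peak, with 35.5% within 5000 bp. Wide peaks were unlike in number: 116 KO-only peaks and 1 WT-only peak were at least 2000 bp wide. Among miRNA hairpins with 2000 bp on each side, Mir219a-2 went from 0 to 1886 bp, Mir137 from 0 to 1068 bp and Mir205 from 0 to 1027 bp.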
